A study of Mus musculus with 165 samples.

Results

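The comparison described here is that of the mouse brain at 9 months of age with the mouse brain at 3 months. Its members are the 31 brain libraries that the labels place at these ages, 15 at 3 months and 16 at 9 months, out of 82 brain and 83 liver libraries in the whole series. The libraries were taken by labelled age and tissue and not by any measured value. Library preparation, a labelled batch with 3 levels called prep 1, prep 2 and prep 3, entered the model as a covariate.

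The series measured polyadenylated RNA in brain and liver of male C57BL/6J/Ukj mice, an inbred laboratory strain, at 5 ages (3, 9, 15, 24 and 28 months). The mice were untreated, were kept for the sole purpose of aging, and carried no transgene or other allele named in the labels. The 3-month group held 5 libraries of each prep and the 9-month group held 6 of prep 1, 5 of prep 2 and 5 of prep 3. Each brain library came from a separate mouse, per the labels, and no region of the brain was named, so each value is an average over whatever tissue was taken. In such bulk samples, fewer cells of a type and less RNA per cell cannot be told apart.

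A mouse of 3 months is a young adult whose brain still completes several processes of late development, and one of 9 months is mature but not old. Between these ages new neurons continue to be made in the dentate gyrus and along the lateral ventricles, at a falling rate. Oligodendrocyte precursors continue to differentiate into the cells that wrap axons in myelin, passing through a short-lived stage that carries the receptor Gpr17. Fibroblasts of the meninges and vessels lay down fibrillar collagen, a protein with slow turnover. Microglia, the resident macrophages of the brain, and the complement proteins, which tag cells and synapses for removal, are known for their changes in the old brain.

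Total counts per library ran from 30.4 to 69.9 M (median 39.6 M) at 3 months and from 19.1 to 63.0 M (median 36.9 M) at 9 months. The neuronal marker Snap25 was at 1892 CPM or more in every library, and the liver marker Alb was at most 0.544 CPM. CPM is a count scaled to a library of 1000000 counts after TMM scaling of library sizes. Replicate 5 of 3 months held choroid plexus genes at a summed 9489 CPM against a median of 417 CPM at that age, and the pituitary gene Gh at 495 CPM against a median of 0.0220 CPM. Replicate 9 of 3 months held myelin genes at a summed 12513 CPM against a median of 4942 CPM. The share of counts from mitochondrial genes had a median of 4.72% at 3 months (4.28% to 5.96%) and of 5.30% at 9 months (4.82% to 6.81%). Among libraries of the later ages that share the model, replicate 15 of 28 months and replicate 13 of 24 months stood apart, with median correlations to the other brain libraries of 0.852 and 0.941.

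Of 18711 genes tested, 59 were called between 9 and 3 months, which is 0.315% of those tested. A gene was called when its p from edgeR's quasi-likelihood test, adjusted over all tested genes, was under 0.05. Levels were higher at 9 months for 35 genes (0.187% of those tested) and lower for 24 (0.128%). The genes that fell included markers of newborn neurons, of dividing cells and of differentiating oligodendrocytes, with fibrillar collagens and collagen-processing proteins. The genes that rose included the complement gene C4b, the microglial receptor Cx3cr1 and several immune receptors, beside genes outside these groups, such as the axonemal gene Spag6. Most changes were small, with a median absolute log2 fold change of 0.57 among the called genes, and 6 genes changed at least 2-fold, 2 of them upwards. For all tested genes the median log2 fold change was -0.002, and 1399 genes (7.48%) had an unadjusted p under 0.05.

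The number of calls depended on the tool and on the libraries that share the model. On the same libraries DESeq2 called 123 genes and limma voom with sample quality weights 442, and edgeR called 110 with the 31 libraries alone. Without replicate 15 of 28 months and replicate 13 of 24 months, 176 genes were called, 107 higher and 69 lower, and these contained all 59. Without those 2 and without replicate 5 of 3 months and replicate 7 of 9 months, the shallowest of the 31, 146 were called, 84 higher and 62 lower, with 58 of the 59 among them. With the mitochondrial share of each library as a covariate, chosen after the data were seen, 53 genes were called, 25 higher and 28 lower. Of the 59, 32 were among them. The share itself had a median of 4.72% at 3 months and of 5.30% at 9 months. It therefore takes up part of the difference between the ages, and in a call lost with it the share and age cannot be told apart. In 31 fits that each left out 1 library of 3 or 9 months, 29 of the 59 were called every time, and no gene changed sign.

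**Figure D1:**
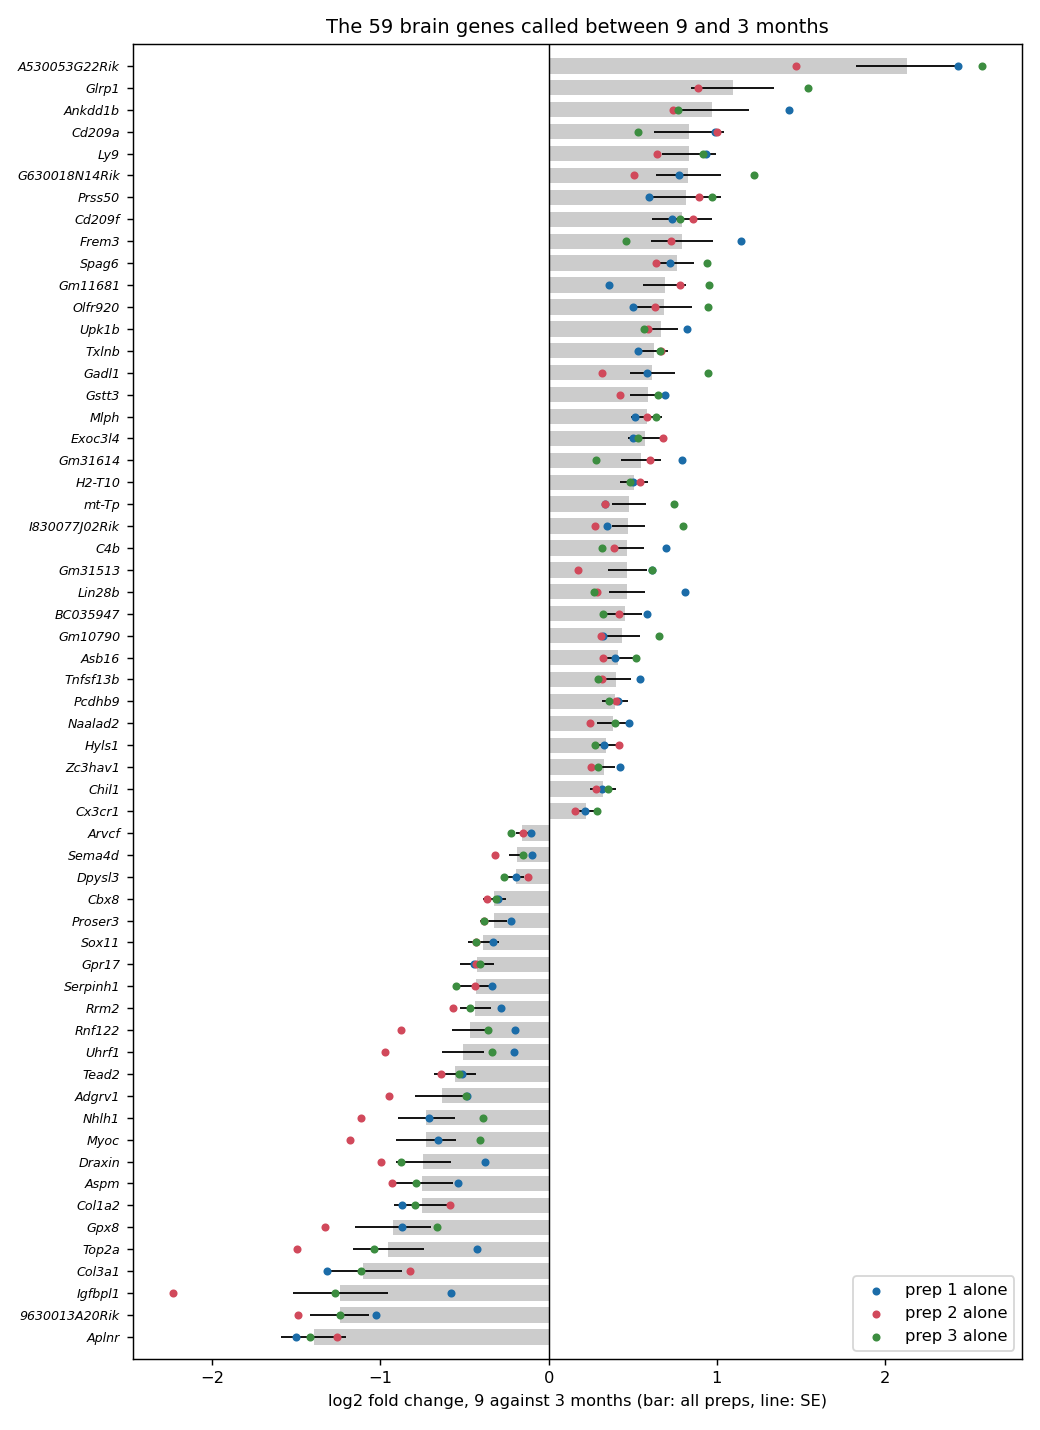
Log2 fold change of each of the 59 called genes, 9 against 3 months, as a grey bar with its standard error as a line, and the same value in prep 1, prep 2 and prep 3 fitted alone as points. Bars run from -1.40 for Aplnr to 2.13 for A530053G22Rik, and the points lie on the side of their bar for 58 genes, with no prep 1 value for Glrp1.

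For 4 genes, all of them called, no library of 3 months overlapped the range of the 9-month libraries, which is 0.0214% of the genes tested. These were Spag6, Txlnb, Pcdhb9 and 9630013A20Rik. In GRCm38 with GENCODE M21 annotation, Spag6 lies at chr2:18694032-18750413 on the plus strand, Txlnb at chr10:17796226-17845665 on the plus strand, and the antisense noncoding gene 9630013A20Rik at chr14:84458639-84476424 on the minus strand. The 2 other genes among the 5 smallest adjusted p-values were Aplnr, at chr2:85136225-85139923 on the plus strand, and the noncoding gene A530053G22Rik, at chr6:60279043-60403707 on the minus strand. Values given for single genes below are the lowest, the median and the highest CPM of the libraries of an age, followed by the log2 fold change with its standard error (SE).

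Some genes of newborn neurons were lower at 9 months. Of 26 tested genes of a list for newborn neurons and neural precursors, 4 fell (Sox11, Igfbpl1, Draxin and Dpysl3), none rose, and 20 had a lower estimate. The median log2 fold change of the list was -0.09, beside -0.002 for all tested genes, of which 9551 of 18711 had a lower estimate. With the mitochondrial share of each library as a covariate, 3 of the 4 lost their call, with an adjusted p of 0.116 for Sox11, 0.0689 for Igfbpl1 and 0.206 for Dpysl3, while that of Draxin was 0.0486. Sox11, a transcription factor of immature neurons, was at 17.9, 20.9 and 29.6 CPM at 3 months and at 11.7, 16.7 and 23.9 CPM at 9 months. The ranges overlapped, yet 15 of 16 libraries of 9 months lay below the 3-month median. Its log2 fold change was -0.39 (SE 0.09, adjusted p = 0.0272), and its mean was 17.0, 14.5 and 14.9 CPM at 15, 24 and 28 months. It lost its call in 7 of the 31 fits without 1 library, with an adjusted p of up to 0.0916 without replicate 16 of 3 months, the highest of its age.

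Igfbpl1, a secreted protein made by newborn neurons, was at 0.721, 1.03 and 2.66 CPM at 3 months and at 0.109, 0.354 and 2.28 CPM at 9 months. In 14 of 16 libraries of 9 months it was below every 3-month library, while replicate 3 of 9 months, at 2.28 CPM, was higher than 14 of the 15. It fell by 1.24 on the log2 scale (SE 0.28, adjusted p = 0.0210), and without replicate 9 of 3 months, the highest of its age, the adjusted p was 0.0581. Draxin, a secreted repellent that guides growing axons, had a log2 fold change of -0.74 (SE 0.16, adjusted p = 0.0155). Dpysl3, a cytoskeletal protein of growing neurites, fell by 0.19 on the log2 scale (SE 0.05, adjusted p = 0.0458), and its call was lost in 24 of the 31 fits without 1 library. Nhlh1, a transcription factor of differentiating neurons that no list held, fell by 0.73 (SE 0.17, adjusted p = 0.0259), and its call was lost in 6 of the 31 fits. Not every gene of the list moved with them: Dcx, the usual marker of migrating neuroblasts, had a median of 25.8 CPM at 3 months and 25.2 CPM at 9 months, with a log2 fold change of -0.04 (SE 0.11, adjusted p = 1.00). The next members by p were Ccnd2 at -0.19, Sox4 at -0.20 and Eomes at -0.99, none of them called.

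Some genes of dividing cells fell as well. Of 33 tested genes of a proliferation list, 3 fell (Top2a, Rrm2 and Uhrf1), none rose, 29 had a lower estimate, and 15 had a lower estimate with an unadjusted p under 0.05. The list median was -0.22. By the same counts, 4.37% of all tested genes had a lower estimate with an unadjusted p under 0.05.

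Top2a, the topoisomerase that untangles chromosomes in dividing cells, was at 0.639, 1.28 and 3.18 CPM at 3 months and at 0.245, 0.655 and 1.93 CPM at 9 months. The ranges overlapped widely, and replicate 9 of 3 months and replicate 7 of 9 months were the highest of their ages. On the log2 scale it fell by 0.95 (SE 0.21, adjusted p = 0.0165), and its mean at 15, 24 and 28 months was 0.468, 0.393 and 0.429 CPM. Without replicate 9 of 3 months its adjusted p was 0.0501. Uhrf1, which maintains DNA methylation during replication, was at 0.891, 1.34 and 2.46 CPM at 3 months and at 0.610, 0.945 and 1.35 CPM at 9 months. All but 1 of the 16 libraries of 9 months lay below the 3-month median. The change came to -0.51 on the log2 scale (SE 0.13, adjusted p = 0.0425), and its later means were 0.843, 0.840 and 0.841 CPM. Uhrf1 lost its call in 19 of the 31 fits without 1 library, with an adjusted p of up to 0.107, and with the mitochondrial share as a covariate (adjusted p = 0.132). Rrm2, a subunit of the enzyme that makes deoxyribonucleotides, was called under every alternative that used more than 1 prep, with a log2 fold change of -0.43 (SE 0.09, adjusted p = 0.00942). Aspm, a mitotic spindle protein that was not on the list, fell by 0.75 (SE 0.18, adjusted p = 0.0420) and lost its call in 20 of the 31 fits. The next members by p, Mcm6 at -0.27, Mki67 at -0.76 and Prc1 at -0.55, were not called.

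In the oligodendrocyte lineage Gpr17, which stood on the lists of both precursors and differentiating cells, and Rnf122 fell. Of 18 tested genes of the differentiating stage, 2 fell (Gpr17 and Rnf122), none rose, 15 had a lower estimate, and 8 of these had an unadjusted p under 0.05, with a list median of -0.15. Of 16 tested genes of oligodendrocyte precursors, Gpr17 was the single call, 11 had a higher estimate, and the median was 0.03. Of 19 tested myelin genes, none was called, 2 had a lower estimate with an unadjusted p under 0.05, and the median was -0.13.

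Gpr17, an orphan G protein-coupled receptor of cells on the way from precursor to myelinating oligodendrocyte, was at 56.3, 65.2 and 84.0 CPM at 3 months and at 43.1, 48.4 and 57.2 CPM at 9 months. The groups nearly separated, since 15 of 16 libraries of 9 months lay below every 3-month library. Between the ages it fell by 0.43 on the log2 scale (SE 0.10, adjusted p = 0.0305), and its mean fell to 44.0, 30.6 and 21.5 CPM at 15, 24 and 28 months. It lost its call in 7 of the 31 fits that left out 1 library, with an adjusted p of up to 0.0637. Exons of Gpr17 overlap those of Lims2 on the opposite strand, and the strand setting of the counting was not given in the sources used here.

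Rnf122, a ubiquitin ligase, was at 2.81, 4.41 and 9.57 CPM at 3 months and at 1.87, 3.28 and 4.92 CPM at 9 months. The ranges overlapped, and the highest value was again replicate 9 of 3 months. Its log2 fold change was -0.47 (SE 0.10, adjusted p = 0.0158), with later means of 3.16, 2.86 and 2.61 CPM. Its adjusted p was 0.0621 without that library and 0.0915 with the 31 libraries alone. The noncoding gene 9630013A20Rik was at 1.58, 2.24 and 6.74 CPM at 3 months and at 0.707, 1.04 and 1.46 CPM at 9 months, with no overlap. No list held this gene, and whether it belongs to the oligodendrocyte lineage was not tested. The highest of its 3-month values was that of replicate 9, the library with the highest myelin genes. It fell by 1.24 on the log2 scale (SE 0.18, adjusted p = 2.6e-06), and its mean was 0.716, 0.390 and 0.291 CPM at 15, 24 and 28 months. Pdgfra, which defines the precursors, was at a median of 60.8 CPM at 3 months and 60.9 CPM at 9 months (log2 fold change -0.001, SE 0.06).

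Myelin genes as a group had no stable direction across the preps. All 19 had a higher estimate in prep 1 (median 0.24), all 19 a lower one in prep 2 (median -0.65), and 12 a lower one in prep 3 (median -0.03). Without replicate 9 of 3 months, a prep 2 library, the median over all preps was 0.01.

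Some collagen genes and genes that process collagen fell. Of 36 tested collagens 2 fell (Col3a1 and Col1a2), none rose, and 24 had a lower estimate, where 9551 of all 18711 tested genes did. Of 27 tested collagen-processing genes 2 fell (Serpinh1 and Gpx8), none rose, and 22 had a lower estimate. The list medians were -0.09 and -0.08. Col3a1 and Col1a2 also stood on a list of 20 fibroblast and meningeal genes, all 20 of which had a lower estimate, 11 of them with an unadjusted p under 0.05, at a median of -0.44. With the summed choroid plexus level of each library as a covariate, chosen after the data were seen, 19 of the 20 had a lower estimate. Of these, 5 had an unadjusted p under 0.05, and the list median was -0.27.

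Col3a1, a fibrillar collagen of soft connective tissue, was at 1.76, 2.95 and 7.27 CPM at 3 months and at 1.11, 1.79 and 2.65 CPM at 9 months. All 16 libraries of 9 months were below the 3-month median. On the log2 scale it fell by 1.10 (SE 0.23, adjusted p = 0.00729), and its later means were 1.9, 2.11 and 1.54 CPM. Col1a2, a chain of type I collagen, was at 8.95, 13.5 and 24.0 CPM at 3 months and at 6.05, 9.38 and 13.5 CPM at 9 months. The ranges overlapped, and the 9-month libraries reached lower values. The change came to -0.75 on the log2 scale (SE 0.17, adjusted p = 0.0172), and its later means were 9.92, 9.99 and 9.15 CPM. Gpx8, a peroxidase of the endoplasmic reticulum, was at 2.54, 4.03 and 13.3 CPM at 3 months and at 1.88, 2.44 and 3.59 CPM at 9 months. Its highest value came from replicate 5 of 3 months, the library rich in choroid plexus genes. Between the ages it fell by 0.93 on the log2 scale (SE 0.22, adjusted p = 0.0372), and its later means were 2.66, 2.52 and 2.62 CPM. It lost its call in 15 of the 31 fits, with an adjusted p of 0.130 without replicate 5 of 3 months. Serpinh1, the chaperone that folds procollagen, fell by 0.43 on the log2 scale (SE 0.10, adjusted p = 0.0203). Without the same library its adjusted p was 0.0754, and with the mitochondrial share as a covariate 0.0513.

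Genes of the choroid plexus, the tissue that secretes cerebrospinal fluid, had lower estimates as well. All 16 tested genes of that list had a lower estimate at 9 months and an unadjusted p under 0.05, none was called, and the median was -1.61. Their summed level was 132, 417 and 9489 CPM at 3 months and 236, 265 and 863 CPM at 9 months, and the median of the list was -1.52 in prep 1, -3.35 in prep 2 and -0.35 in prep 3. In these preps, each fitted with all its ages, 15, 14 and 0 of the 16 had an unadjusted p under 0.05. Without the 4 libraries left out of the fit with 146 calls, 7 of the 16 did, at a median of -1.20. The summed fibroblast and meningeal list was 361, 699 and 1146 CPM at 3 months and 347, 542 and 804 CPM at 9 months. Dcn, which defines fibroblasts, had a median of 60.8 CPM at 3 months and of 53.2 CPM at 9 months. With the summed choroid plexus level as a covariate, the log2 fold change was -0.92 for Col3a1 (adjusted p = 0.0284), -0.61 for Col1a2 (adjusted p = 0.0773), -0.58 for Gpx8 (adjusted p = 0.0011) and -0.33 for Serpinh1 (adjusted p = 0.0284). The amount of meninges and choroid plexus in each sample was not measured in any other way.

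**Figure D2:**
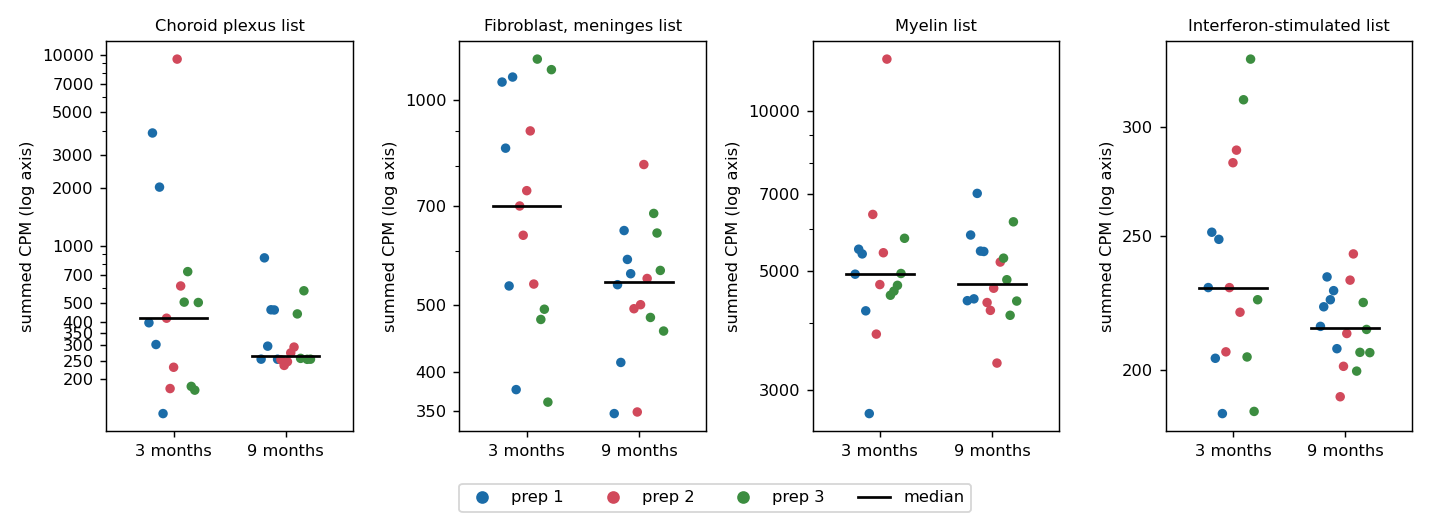
Summed CPM of 4 gene lists in each brain library, on a log axis, for the 15 libraries of 3 months and the 16 of 9 months, with points coloured by prep and the median as a line. Choroid plexus genes range from 132 to 9489 CPM at 3 months and from 236 to 863 CPM at 9 months, and 1 library of 3 months stands alone in the myelin panel at 12513 CPM.

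Several other genes fell. Aplnr, the receptor of the peptide apelin found on endothelial cells, was at 0.570, 1.06 and 1.95 CPM at 3 months and at 0.230, 0.440 and 0.677 CPM at 9 months. Of the 16 libraries of 9 months, 14 were below every 3-month library. Its log2 fold change was -1.40 (SE 0.19, adjusted p = 1.91e-06), the largest decrease among called genes, and its later means were 0.347, 0.300 and 0.181 CPM. On the endothelial list, which did not hold Aplnr, none of 25 tested genes was called, 2 had an unadjusted p under 0.05, and the median was -0.06. Myoc, a secreted glycoprotein, was at 8.70, 17.4 and 27.1 CPM at 3 months and at 6.01, 9.52 and 17.7 CPM at 9 months. Its libraries overlapped in part, with 15 of 16 of 9 months below the 3-month median. The log2 fold change of Myoc was -0.73 (SE 0.18, adjusted p = 0.0372), with later means of 11.5, 12.0 and 10.0 CPM, and it lost its call in 16 of the 31 fits without 1 library and with the mitochondrial covariate (adjusted p = 0.116).

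Tead2, a transcription factor of the Hippo pathway, was at 1.91, 2.57 and 3.73 CPM at 3 months and at 1.26, 1.74 and 3.01 CPM at 9 months. In 12 of 16 libraries of 9 months it was below every 3-month library. It fell by 0.56 on the log2 scale (SE 0.12, adjusted p = 0.0158), and its later means were 1.98, 2.06 and 1.98 CPM. Adgrv1, a very large adhesion receptor, was at 1.18, 2.29 and 5.24 CPM at 3 months and at 1.06, 1.59 and 2.02 CPM at 9 months. Its ranges overlapped for all but 1 library of 9 months. The log2 fold change was -0.63 (SE 0.16, adjusted p = 0.0486), with later means of 1.80, 1.55 and 1.65 CPM, and the call was lost in 24 of the 31 fits and with the mitochondrial covariate (adjusted p = 0.0689). Cbx8, a Polycomb protein, fell by 0.32 on the log2 scale (SE 0.07, adjusted p = 0.00704), and its adjusted p was 0.0523 with the mitochondrial share as a covariate. The remaining called decreases, Proser3, Sema4d and Arvcf, lay between -0.33 and -0.16 and lost their calls in 18, 26 and 19 of the 31 fits, and with the mitochondrial covariate.

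Several immune genes rose. C4b, a complement component that in the brain is made by glia, was at 26.0, 37.5 and 65.1 CPM at 3 months and at 44.3, 59.8 and 77.8 CPM at 9 months. All 16 libraries of 9 months were above the 3-month median, and 2 were above every 3-month library. On the log2 scale it rose by 0.47 (SE 0.10, adjusted p = 0.00942), and it was called in all 31 fits without 1 library. Its mean went on to 71.8, 131 and 210 CPM at 15, 24 and 28 months. Its near-identical neighbour C4a had a log2 fold change of -0.02 (SE 0.10, adjusted p = 1.00). How reads shared by the pair were counted is not given in the sources used here.

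C4b was the single call among 21 tested complement genes, 12 of which had a higher estimate, with a median of 0.13. Of 20 tested genes of homeostatic microglia, 1 rose (Cx3cr1), none fell, 18 had a higher estimate, and 10 of these had an unadjusted p under 0.05, beside 3.11% of all tested genes. The list median was 0.17, and it was 0.15, 0.13 and 0.20 in prep 1, prep 2 and prep 3. Cx3cr1, the receptor through which neurons signal to microglia, was at 50.7, 55.4 and 61.9 CPM at 3 months and at 58.2, 65.7 and 70.9 CPM at 9 months. Of the 16 libraries of 9 months, 12 were above every 3-month library. The change came to 0.23 on the log2 scale (SE 0.06, adjusted p = 0.0425), and this call was lost in 20 of the 31 fits that left out 1 library and with the mitochondrial share as a covariate (adjusted p = 0.135). Among the other members, these were near it in size without being called: Slc2a5 at 0.27 and P2ry13 at 0.28. Genes of activated microglia had no call among 30 tested, with 4 at an unadjusted p under 0.05 and a median of 0.03.

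Further immune genes also rose. Ly9, a receptor of the SLAM family on lymphocytes, had medians of 0.264 CPM at 3 months and 0.466 CPM at 9 months, with a log2 fold change of 0.83 (SE 0.16, adjusted p = 0.00156). No gene was called among 8 tested of the T cell lineage (median 0.04) or 13 tested of the B cell lineage (median 0.03). Tnfsf13b, the B cell survival factor BAFF, rose by 0.40 on the log2 scale (SE 0.09, adjusted p = 0.0254), and its adjusted p was 0.0691 with the mitochondrial share as a covariate. Cd209a and Cd209f, C-type lectin receptors of macrophages and dendritic cells, rose by 0.84 (SE 0.21, adjusted p = 0.0480) and 0.80 (SE 0.18, adjusted p = 0.0172). Cd209a lost its call in 24 of the 31 fits without 1 library, and with the mitochondrial share as a covariate the adjusted p was 0.159 for Cd209a and 0.0760 for Cd209f. On a list of macrophages at the borders of the brain, Cd209f was the single call, and 11 of 13 tested genes had a lower estimate, such as Mrc1 at -0.30 (SE 0.13, adjusted p = 0.551). Chil1, a chitinase-like protein, rose by 0.32 (SE 0.08, adjusted p = 0.0372). Its call was lost in 11 of the 31 fits and with the mitochondrial covariate (adjusted p = 0.0689).

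H2-T10, a nonclassical class I histocompatibility gene, was at 0.877, 1.29 and 1.68 CPM at 3 months and at 1.20, 1.83 and 2.34 CPM at 9 months. In 10 of 16 libraries of 9 months it exceeded every 3-month library. Between the ages it rose by 0.51 on the log2 scale (SE 0.09, adjusted p = 0.000184), its later means were 1.84, 2.42 and 2.58 CPM, and as a member of a family of near-identical genes its counts are uncertain. None of 17 tested genes on a list of class I genes and their processing was called, 1 had an unadjusted p under 0.05, and the median was 0.01. Zc3hav1, an antiviral protein that binds foreign RNA, rose by 0.33 on the log2 scale (SE 0.06, adjusted p = 0.00214), with a higher estimate in every prep.

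Interferon-stimulated genes did not rise with these immune genes. None of 35 tested was called, 34 had a lower estimate at 9 months, 14 of them with an unadjusted p under 0.05, and the median was -0.26. The genes with the smallest p were Mx1 at -0.94 (SE 0.24, adjusted p = 0.0648), Ifi44 at -0.70 (SE 0.19, adjusted p = 0.0854) and Irf9 at -0.26 (SE 0.08, adjusted p = 0.193). The size differed by prep, with list medians of -0.01 in prep 1, -0.26 in prep 2 and -0.44 in prep 3. In prep 1, 17 of the 35 had a higher estimate. The summed level was 186, 229 and 336 CPM at 3 months and 191, 215 and 243 CPM at 9 months, with replicate 16 of 3 months the highest.

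**Figure D3:**
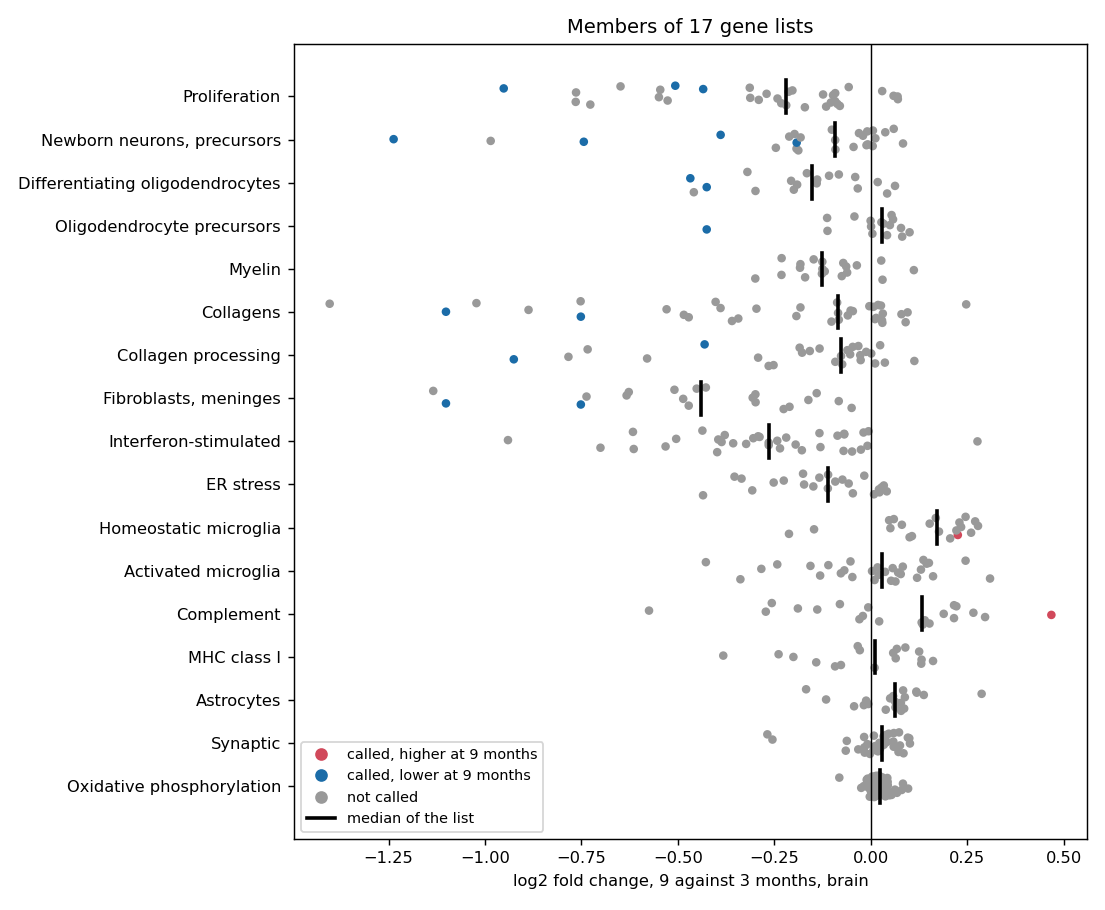
Log2 fold change, 9 against 3 months, of each tested member of 17 gene lists, with called genes in colour and the median of each list as a bar. Proliferation, fibroblast and interferon-stimulated genes lie mostly to the left of 0 with few calls, homeostatic microglia lie mostly to the right, and the synaptic and oxidative phosphorylation genes lie close to 0.

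Of the 4 genes with no overlap between the ages, 9630013A20Rik, given above, stood on no list. Spag6, Txlnb and Pcdhb9 lay outside these groups as well. Spag6, a protein of the central apparatus of motile cilia and flagella, was at 1.75, 2.12 and 2.62 CPM at 3 months and at 2.86, 3.78 and 4.24 CPM at 9 months. No library of 9 months was as low as the highest of 3 months. Its log2 fold change was 0.76 (SE 0.10, adjusted p = 1.26e-06), with 0.72, 0.64 and 0.94 in prep 1, prep 2 and prep 3, and its later means were 4.32, 5.25 and 5.79 CPM. Of 44 tested genes of motile cilia, Spag6 was the single call and 40 had a lower estimate, with a median of -0.21, which was -0.04 with choroid plexus genes as a covariate. The closely related Spag6l had a log2 fold change of -0.08 (SE 0.08, adjusted p = 1.00).

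Txlnb, a taxilin known from muscle, was at 1.47, 2.06 and 2.52 CPM at 3 months and at 2.57, 3.17 and 3.87 CPM at 9 months, again with no overlap. It rose by 0.62 on the log2 scale (SE 0.08, adjusted p = 1.26e-06). At later ages its mean stayed near the 9-month level, at 3.35, 3.29 and 3.06 CPM. Pcdhb9, a clustered protocadherin of neuronal surfaces, was at 10.9, 11.9 and 13.3 CPM at 3 months and at 13.8, 15.8 and 18.9 CPM at 9 months. Its ranges did not overlap either. The log2 fold change of Pcdhb9 was 0.39 (SE 0.08, adjusted p = 0.00359). It was the single call among 22 tested beta protocadherins, whose median was 0.04. Their direction differed by prep, and 21 of the 22 had a higher estimate in prep 1 (median 0.23). In prep 2, 17 had a lower one (median -0.10), and in prep 3, 15 did (median -0.07). Among 34 tested alpha and gamma protocadherins none was called or had an unadjusted p under 0.05 with all libraries.

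A530053G22Rik, a noncoding gene, was at 0, 0.0487 and 0.118 CPM at 3 months and at 0.0801, 0.210 and 0.471 CPM at 9 months. At 3 months 11 of 15 libraries held 3 counts or fewer, against 2 of 16 at 9 months. On the log2 scale it rose by 2.13 (SE 0.31, adjusted p = 3.9e-06), and its later means were 0.465, 0.940 and 1.16 CPM. Frem3, a basement membrane protein, was at 0.683, 1.56 and 2.37 CPM at 3 months and at 1.77, 2.85 and 5.98 CPM at 9 months. In 13 of 16 libraries of 9 months it exceeded every 3-month library. The change came to 0.79 on the log2 scale (SE 0.18, adjusted p = 0.0244), and its later means were 3.19, 3.47 and 3.93 CPM. Frem3 lost its call in 2 of the 31 fits, with an adjusted p of 0.0685 without replicate 12 of 9 months. It was the single call among 42 tested matrix genes other than collagens, 34 of which had a lower estimate.

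Upk1b, a uroplakin of the tetraspanin family, was at 0.951, 1.24 and 1.59 CPM at 3 months and at 1.5, 1.88 and 2.86 CPM at 9 months. All but 1 of the 16 libraries of 9 months were above every 3-month library. Between the ages it rose by 0.67 on the log2 scale (SE 0.10, adjusted p = 1.85e-05), and its later means were 2.53, 2.88 and 2.86 CPM. Mlph, melanophilin, an adaptor between Rab27a and myosin Va in vesicle transport, was at 1.58, 2.03 and 2.63 CPM at 3 months and at 2.44, 3.12 and 3.48 CPM at 9 months. In 13 of 16 libraries of 9 months it exceeded every 3-month library. Its log2 fold change was 0.58 (SE 0.09, adjusted p = 5.64e-05), and its later means were 3.29, 3.66 and 4.19 CPM. Exoc3l4, related to a subunit of the exocyst, was at 1.20, 1.72 and 2.40 CPM at 3 months and at 1.96, 2.45 and 3.65 CPM at 9 months. The 9-month libraries all lay above the 3-month median. The log2 fold change was 0.57 (SE 0.10, adjusted p = 0.000425), with later means of 3.24, 3.59 and 3.37 CPM.

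Gstt3, a theta-class glutathione transferase, was at 0.739, 1.57 and 2.82 CPM at 3 months and at 1.42, 2.29 and 3.61 CPM at 9 months. The ranges overlapped for all but 1 library of 9 months. It rose by 0.59 on the log2 scale (SE 0.11, adjusted p = 0.00156), and its later means were 2.54, 2.85 and 2.84 CPM. The long noncoding gene Gm11681 was at 1.10, 1.81 and 3.04 CPM at 3 months and at 1.72, 2.91 and 3.94 CPM at 9 months. In 7 of 16 libraries of 9 months it exceeded every 3-month library. The log2 fold change of Gm11681 was 0.69 (SE 0.13, adjusted p = 0.000899), with later means of 3.06, 3.78 and 3.31 CPM. Another, Gm31614, was at 0.701, 0.989 and 1.45 CPM at 3 months and at 0.993, 1.45 and 1.87 CPM at 9 months. It lay above the 3-month median in all 16 libraries of 9 months. On the log2 scale it rose by 0.55 (SE 0.12, adjusted p = 0.0144), and its later means were 1.41, 1.69 and 1.45 CPM. With the mitochondrial share as a covariate the adjusted p of Gm31614 was 0.0689. Lin28b, which blocks the maturation of let-7 microRNAs, rose by 0.47 on the log2 scale (SE 0.11, adjusted p = 0.0210), and by 0.29 (adjusted p = 0.218) with the mitochondrial share as a covariate. Hyls1, a centriolar protein, rose by 0.34 (SE 0.06, adjusted p = 0.000208). The other called increases ranged from 0.38 for Naalad2 to 1.09 for Glrp1, and calls among them were lost in up to 22 of the 31 fits (22 for Prss50, 18 for Gm31513 and 7 for Gm10790).

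**Figure D4:**
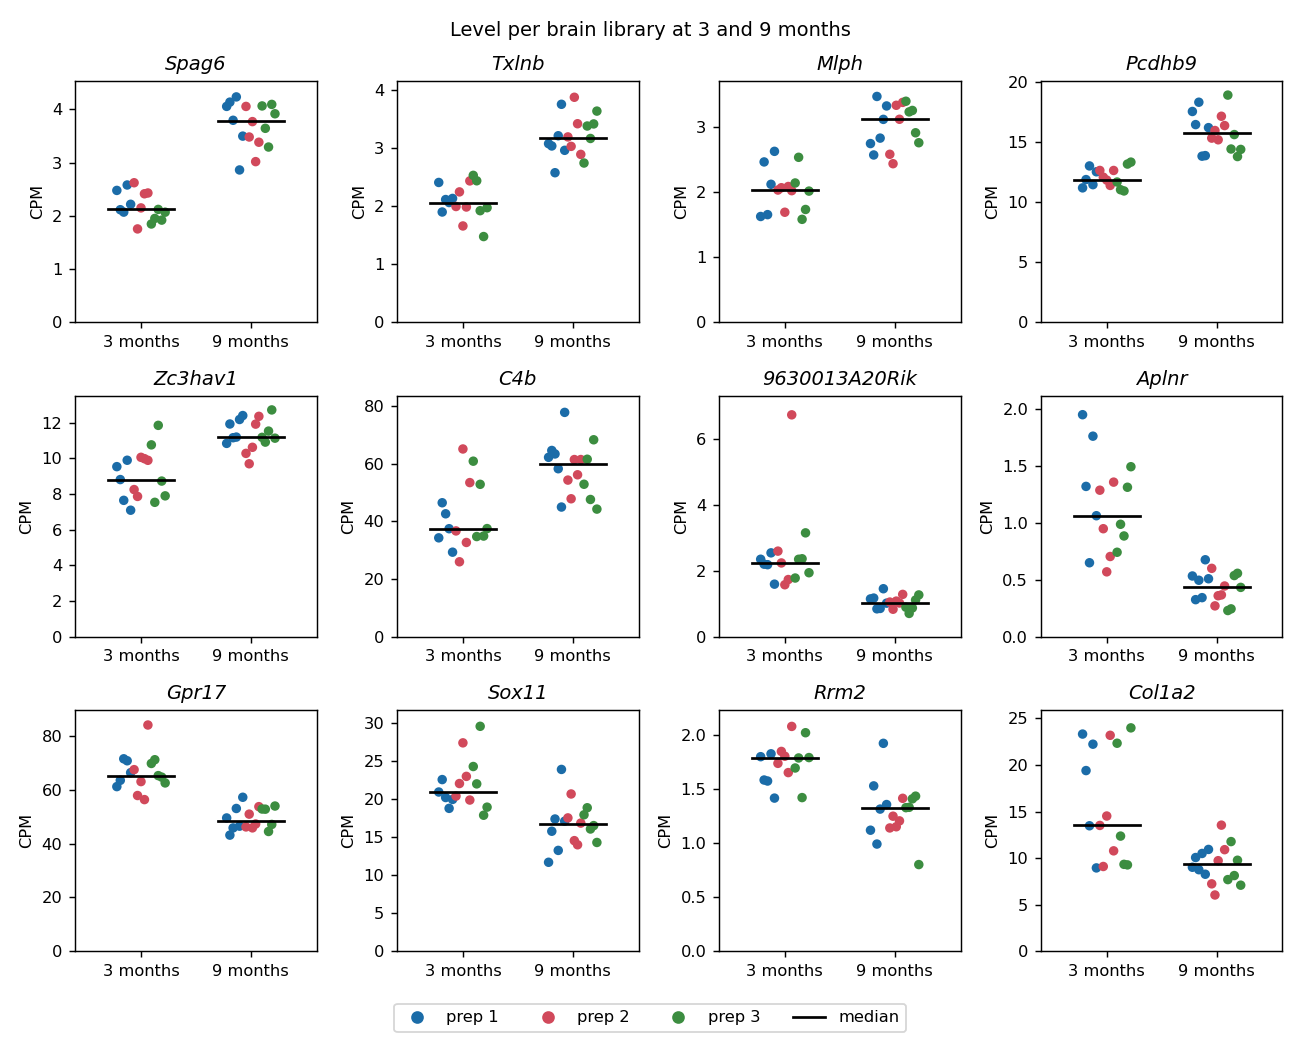
CPM of 12 called genes in each brain library at 3 and 9 months, with points coloured by prep and the median as a line. Spag6, Txlnb, Pcdhb9 and 9630013A20Rik show no overlap between the ages, while the ranges of Col1a2 overlap, from 8.95 to 24.0 CPM at 3 months and from 6.05 to 13.5 CPM at 9 months.

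Many functions of the adult brain gave no call at this depth. No gene was called among 34 tested synaptic genes (median log2 fold change 0.03), 24 glutamate receptor genes (0.02), 16 GABA receptor genes (0.03), 22 potassium and sodium channel genes (0.005), 25 neuropeptide genes (-0.10) and 20 immediate early genes (-0.01). The same was true of 62 genes of oxidative phosphorylation encoded in the nucleus (0.02), 20 astrocyte genes (0.06), 23 heat shock genes (-0.07), 23 genes of the response to stress of the endoplasmic reticulum (-0.11) and 13 genes of senescence (-0.08). Each of these lists held 0 to 4 members with an unadjusted p under 0.05, apart from the list for stress of the endoplasmic reticulum. There, 8 of 23 had a lower estimate with an unadjusted p under 0.05, led by Pdia4 at -0.34 (SE 0.09, adjusted p = 0.0866). Of 13 tested protein-coding genes of the mitochondrial genome, 12 had a higher estimate, 7 of them with an unadjusted p under 0.05, none called, at a median of 0.18. The mitochondrial tRNA gene mt-Tp was called at 0.48 (SE 0.10, adjusted p = 0.00942). With the mitochondrial share as a covariate its value was 0.32 (adjusted p = 0.114). That share counts mt-Tp itself, so this fit is no separate check of the gene.

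The preps gave 3 comparisons with no library in common. In prep 1 alone, with 5 libraries of 3 months and 6 of 9 months, edgeR called 10 genes (0.0536%), 8 higher and 2 lower, and 1163 had an unadjusted p under 0.05. In prep 2 and in prep 3 alone, with 5 libraries of 3 months and 5 of 9 months each, it called none (0%). In these, 966 and 482 genes had an unadjusted p under 0.05, and no other tool was run on single preps. Each of these fits also held the later ages of its prep. Replicate 13 of 24 months, which stood apart, was in prep 2, and replicate 15 of 28 months in prep 3. How far they moved the counts of their preps was not tested. The 10 genes of prep 1 were Spag6, Aplnr, Zc3hav1, Txlnb, 9630013A20Rik, C4b, Pcdhb9, Apol8, Gm36855 and Gm42756, of which 7 were also among the 59. In prep 2 and prep 3 all of them had the same direction except Apol8, at -0.06 in prep 3. Among the 59, 58 had the same direction in each prep. These genes were called from the same libraries, so this count is no independent check, and 33.2% of all genes tested in all 3 preps had 1 direction in each. A difference between preps in the change with age was called for 2 genes of all tested (0.0107%), the pituitary genes Gh and Pomc, and for none of the 59.

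Later ages show how these genes went on. Between 9 and 15 months no gene was called by edgeR (0%), with 532 genes at an unadjusted p under 0.05, while DESeq2 called 4 and limma voom with sample weights 34. Comparisons of 15, 24 and 28 with 3 months share their 3-month libraries with the comparison of 9 and 3 months and called 163 (0.871%), 1882 (10.1%) and 5291 genes (28.3%). For C4b the log2 fold change against 3 months was 0.47 at 9 months, 0.79 at 15, 1.64 at 24 and 2.32 at 28 months. For Gpr17 it was -0.43, -0.60, -1.11 and -1.62, and for Txlnb 0.62, 0.69, 0.67 and 0.57.

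The comparison of 28 with 15 months shares no library with that of 9 and 3 months. Of the 35 genes higher at 9 months, 29 had a higher estimate at 28 than at 15 months, beside 53.5% of all genes, and 17 were called higher, beside 9.4% of all genes. Of the 24 genes lower at 9 months, 20 had a lower estimate, beside 46.5% of all genes, and 8 were called lower, beside 5.73%. The 8 were Gpr17, 9630013A20Rik, Aplnr, Serpinh1, Rrm2, Cbx8, Dpysl3 and Proser3. From 15 to 28 months Gpr17 fell by 1.02 on the log2 scale (adjusted p = 2.44e-12) and 9630013A20Rik by 1.19 (adjusted p = 8.19e-06). Of the genes called higher again, C4b had 1.54 (adjusted p = 7.71e-22), Ly9 1.27 (adjusted p = 5.9e-11) and Spag6 0.42 (adjusted p = 0.000779). Cd209f was called in the opposite direction, at -0.48 (adjusted p = 0.0424).

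Others did not pass the test between 15 and 28 months. On the log2 scale the estimate was -0.29 for Col3a1 (adjusted p = 0.411), -0.12 for Col1a2 (adjusted p = 0.677), 0.05 for Gpx8 (adjusted p = 0.899), -0.09 for Top2a (adjusted p = 0.828), -0.06 for Igfbpl1 (adjusted p = 0.920) and -0.12 for Txlnb (adjusted p = 0.314). Between 24 and 15 months, 33 of the 35 had a higher estimate, beside 52.4% of all genes, and 6 were called higher, beside 0.679%. Of the 24, 18 had a lower estimate, beside 47.6% of all genes, and 2 were called lower, beside 0.0534%. Without replicate 15 of 28 months and replicate 13 of 24 months, 10 of the 35 were called higher between 24 and 15 months.

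**Figure D5:**
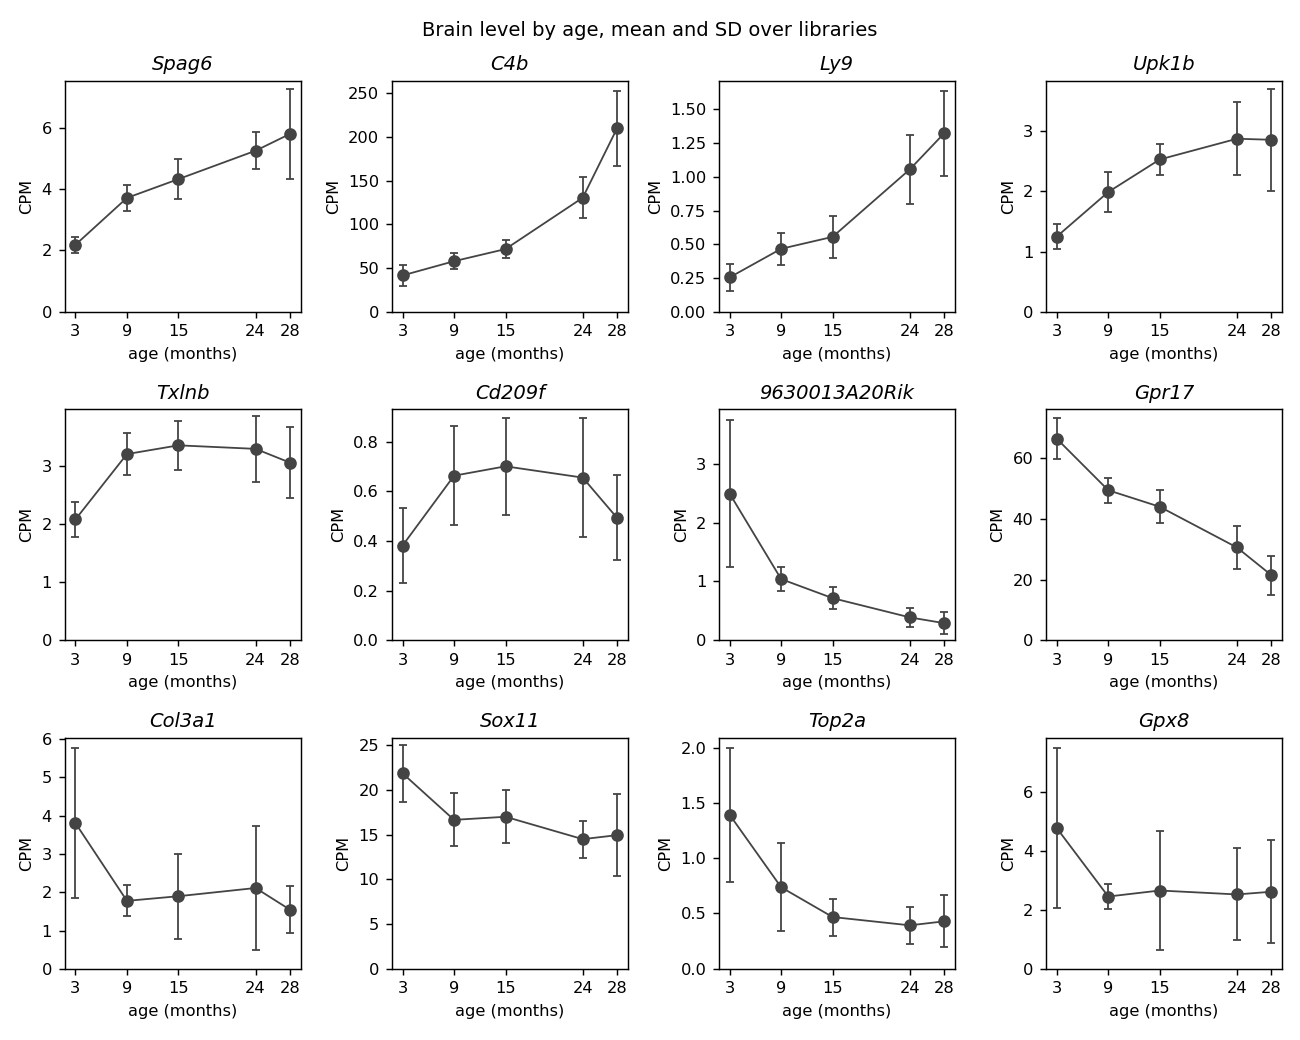
Mean CPM of 12 called genes in the brain at 3, 9, 15, 24 and 28 months, with the SD over libraries. Spag6, C4b and Ly9 are highest and Gpr17 and 9630013A20Rik lowest at 28 months, whereas Txlnb, Col3a1 and Gpx8 stay near their 9-month means.

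The liver of the same mice was measured at both ages. Of the 59 brain genes, 35 were tested in the liver, and none was called there by edgeR, 5 having an unadjusted p under 0.05, of which 4 had the direction of the brain, where 731 of 15579 genes (4.69%) were called. The difference between the change in brain and in liver was tested for 14035 genes and called for 221 (1.57%). Among the 35 it was called for 5: Zc3hav1, Cd209a, Gpx8, H2-T10 and Exoc3l4. With the mouse as a block, since brain and liver came from the same mice, the call of Exoc3l4 was lost (adjusted p = 0.0536) and Cd209f was called (adjusted p = 0.0143). For Zc3hav1 the brain value was 0.33 on the log2 scale and the liver value -0.15 (adjusted p of the difference = 0.00204). For C4b it was 0.47 and -0.04 (adjusted p of the difference = 0.0579), and for Serpinh1 -0.43 and -0.29 (adjusted p of the difference = 0.821).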

How the data were processed

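Raw gene counts of 55471 Ensembl identifiers were taken as the authors deposited them, 1 column per library, and 0 columns were left unused. Per the submitters' processing notes, the tools were cutadapt 2.8, HISAT2 2.1.0, SAMtools 1.9 and featureCounts of Subread 2.0.1, on GRCm38.p6. The strand setting was not given in the sources used here. In GENCODE M21, exons of 14 called genes overlap another gene on the opposite strand and those of 3 (Col3a1, Top2a and Gstt3) on the same strand, so their counts are less certain.

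All 82 brain libraries were fitted together with edgeR 4.0.16 in R 4.3.3 (filterByExpr by age, TMM scaling, age and prep as terms), and 9 months was contrasted with 3 months by the two-sided quasi-likelihood test with Benjamini-Hochberg adjustment. The SE of a log2 fold change was derived from the F statistic, as its size over the root of F. DESeq2 1.42.0 and limma 3.58.1 served as alternatives. The procedure was tested on simulated counts with set changes and no effect of prep. They held no library that stood apart, so they do not test how such libraries move the calls.

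Libraries were taken by their labelled age and tissue, but this comparison of ages, the gene lists (55) and the tests were chosen with earlier results of these data known. Full values were given for the 10 highest and 10 lowest log2 fold changes of called genes that averaged 1 CPM or more and kept 1 direction over the preps, and for the 5 smallest adjusted p-values. Full values of other called genes were added after their values were seen. Called members of a list and up to 3 others, by p, were named. The value of 1 such member is not reported here. Labels give each brain library its own mouse, so same-numbered brains of the 2 ages come from different mice, while brain and liver libraries share mice. Pairwise deviations showed no duplicate library.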

Additional observations from a re-analysis of the deposited data

Results flagged for a closer look

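For 5 of the brain genes called between 9 and 3 months, the change in the brain differed from that in the liver by the test of the difference in 1 edgeR model of both tissues. The difference of the log2 fold changes, brain minus liver, was 0.47 for Zc3hav1 (SE 0.10, adjusted p = 0.00204) and 1.28 for Cd209a (SE 0.29, adjusted p = 0.0039). It was -1.05 for Gpx8 (SE 0.26, adjusted p = 0.0136), 0.67 for H2-T10 (SE 0.17, adjusted p = 0.0148) and 0.69 for Exoc3l4 (SE 0.19, adjusted p = 0.0304). In the liver alone the log2 fold changes of these genes were -0.15, -0.45, 0.12, -0.17 and -0.12, none of them called. With the mouse, which both tissues share, as a block, the adjusted p of the difference was 0.0536 for Exoc3l4, so that its call was lost, and 0.0143 for Cd209f, which was then called.

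The change with age differed between the preps for 2 pituitary genes, Gh (adjusted p = 0.00257) and Pomc (adjusted p = 0.0111). The log2 fold change of Gh was 6.85 in prep 1 and -9.30 in prep 2, and that of Pomc was 3.23 in prep 1, -3.61 in prep 2 and -0.01 in prep 3. Single libraries held the high values, with Gh at up to 495 CPM at 3 months and 71.0 CPM at 9 months against medians of 0.0220 and 0.0745 CPM.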

How the results depend on the processing

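No called gene changed sign under any alternative. The main counts were 59 in all, 35 higher and 24 lower. Called in all, higher and lower were 123, 64 and 59 with DESeq2, 442, 237 and 205 with limma voom and sample quality weights, 38, 23 and 15 for genes averaging 1 CPM or more, and 110, 68 and 42 with the 31 libraries alone. DESeq2 and voom kept all 59, the 31 libraries alone 51 of 56 tested. Prep 1 alone gave 10, 8 and 2 calls. Preps 2 and 3, each with 1 of the 2 libraries of later ages that stood apart, gave 0, 0 and 0. A clock gene score as covariate gave 83, 46 and 37. After the data were seen, leaving out the 2 libraries of later ages gave 176, 107 and 69, and leaving out 4 libraries gave 146, 84 and 62. The cause of these shifts was not tested.

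Leaving out each replicate in turn gave 41 to 64 in all, 27 to 43 higher and 13 to 29 lower. The lower count was 13 without 9 months replicate 12, 14 without 9 months replicates 1 or 15, and 15 without 3 months replicates 9 or 11. With RLE size factors 55 of the 59 were called, with no filter 43 and without a prep term 59. Of the covariates chosen after the data were seen, choroid plexus genes left 49 of the 59 called and the mitochondrial share 32. Over 14 such alternatives and the 31 fits, 22 genes were always called where tested.

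Replicate numbers did not pair the samples: deviations of same-numbered brains correlated at -0.22 to 0.16 over 15 pairs, and 1 sample correlated best with its own number. The replicate block gave 56 calls, 36 higher and 20 lower. With the mouse as a block, the difference between brain and liver was called for 124 genes instead of 221. Without the 2 libraries of later ages, 10 rather than 6 of the 35 were called higher between 24 and 15 months. At these depths genes under about 1 CPM rest on few counts: 16 of the 59 had a mean below it.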

Other observations

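Leaving out the 4 libraries that stood apart brought further genes of the same lists past the threshold, in a setting chosen after seeing the data (0.779% of 18736 genes called). Among genes of dividing cells these were Mki67 (log2 fold change -0.78, adjusted p = 0.0421), Cenpf (-0.51, adjusted p = 0.0213) and Prc1 (-0.50, adjusted p = 0.0339). Among homeostatic microglial genes they were the fructose transporter Slc2a5 (0.29, adjusted p = 0.0184) and the purinergic receptor P2ry13 (0.27, adjusted p = 0.0405). Sox4, a transcription factor of immature neurons, fell by 0.21 (adjusted p = 0.0311), and Mpzl1 of the differentiating oligodendrocyte list fell by 0.20 (adjusted p = 0.0371). The endoplasmic reticulum genes Pdia4 (-0.32, adjusted p = 0.0173) and Creld2 (-0.31, adjusted p = 0.0266) fell, and S100b, a calcium-binding protein of astrocytes, rose by 0.29 (adjusted p = 0.00146), while Iigp1, an interferon-induced GTPase on the reactive astrocyte list, fell by 0.68 (adjusted p = 0.0311). The adenosine receptor gene Adora2a of the striatal list fell by 0.48 (adjusted p = 0.0460). The gamma protocadherin Pcdhga2 rose by 0.34 (adjusted p = 0.0259). The hypothalamic peptide gene Avp fell by 1.96 (adjusted p = 0.0306). None of these was called with all libraries.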
